A study of Saccharomyces cerevisiae with 9 samples.

Results

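The genes described here are the 10 of 6268 array features of Saccharomyces cerevisiae that encode phosphate transporters, polyphosphate synthesis subunits and a pair of phosphate-responsive proteins. They were chosen by systematic name, with no measured value in the rule: PHO84 (YML123C), PHO89 (YBR296C), PHO87 (YCR037C), PHO90 (YJL198W), PHO91 (YNR013C), SPL2 (YHR136C), PHM6 (YDR281C), VTC1 (YER072W), VTC3 (YPL019C) and VTC4 (YJL012C). Earlier results of these data were known when the 10 were chosen, so their shares of calls given below are descriptive. All 10 had a value on all 9 arrays, and all 10 were tested. The study asked which transcripts depend on the related protein kinases Ypk1 and Ypk2, either of which suffices for growth. Every culture was of a strain deleted for both chromosomal genes (ypk1 delta ypk2 delta), kept alive by one kinase gene on a plasmid and grown in SCD-Leu medium, which lacks leucine.

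The AS Ypk1 cells carried an analog-sensitive Ypk1, an engineered kinase that a bulky ATP analog blocks. They were set against WT Ypk1 cells, and both received 0.5 µM 2,3-DMB-PP1 for 0, 15, 30 or 60 min. The AS Ypk2 cells were set against WT Ypk2 cells, and both received 1 µM 3-MB-PP1 for the same times. A last array set WT Ypk2 cells against WT Ypk1 cells, neither given an inhibitor. Each array gave 1 log2 ratio per gene, of the group named first over the group named second, and was shifted so that its median gene stood at 0. There was 1 array per condition and no dye swap, so dye and strain cannot be told apart. The inhibitor and its dose differed between the kinases. YPK1 itself stood at 0.73, 0.82, 2.44 and 1.55 in AS over WT Ypk1 cells at 0, 15, 30 and 60 min. YPK2 stood at 1.06, 1.36, 1.53 and 1.36 in AS over WT Ypk2 cells, so the transcript of the kinase carried was higher in AS cells before and after inhibitor. The other kinase gene was deleted from the chromosome in both cultures of each series. Even so, YPK2 in the Ypk1 series stood at 0.25 at 0 min and averaged 0.96 later. It passed as higher in the test described below (limma adjusted p = 0.0173). YPK1 in the Ypk2 series averaged −0.11 later and did not pass (limma adjusted p = 0.867). The source of the YPK2 value was not tested. On the array of the WT strains YPK2 stood at 5.49 and YPK1 at −4.33.

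Budding yeast senses phosphate through the PHO pathway. When phosphate is scarce, the kinase inhibitor Pho81 holds the cyclin-dependent kinase Pho80-Pho85 inactive, and the transcription factor Pho4 enters the nucleus and acts with Pho2 on target genes. Those targets include the high-affinity transporters, secreted acid phosphatases, SPL2, PHM6 and subunits of the vacuolar transporter chaperone (VTC) complex, which makes polyphosphate, the cell's phosphate store. The low-affinity transporters Pho87 and Pho90 carry phosphate when it is plentiful.

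In the mean of the later times under inhibitor, PHO84 was the lowest of the 10 genes in AS cells with either kinase. The other high-affinity transporter gene, PHO89, was higher. At 60 min with Ypk2, PHM6 (−2.00) lay below PHO84 (−1.75). PHM6 was lower with both kinases, and VTC1 was lower with Ypk1. With Ypk1 these 2 genes were already lower at 0 min (−2.22 and −1.64) than in their later means (−1.74 and −1.47). PHO84 was also below 0 at 0 min, at −1.26 with Ypk1 and −1.29 with Ypk2. In the fit described below, the change from 0 min passed for none of the 10. Of the 10, 3 passed the test as lower with Ypk1, namely PHO84, PHM6 and VTC1, against 10.5% of all genes, and 1 passed as higher, PHO89, against 10.9%. With Ypk2, 2 were lower, PHO84 and PHM6, against 4.73% of all genes, and 1 was higher, PHO89, against 6.98%. The test was limma's moderated test of the mean of the 15, 30 and 60 min ratios against 0, adjusted over 6220 genes at a threshold of 0.05. The 3 times stand in for replicates, so its p-values measure the spread between times and not between separate cultures. That spread was pooled over both kinases and moderated across genes, so it is not the SD given below for each kinase. The median ratio of the 10 genes was −0.26 with Ypk1, where the median of all genes tested was −0.01, and −0.37 with Ypk2, where it was 0.01. When the 6 later arrays of both kinases were averaged, 4 of the 10 were lower (PHO84, PHM6, VTC1 and PHO91) against 15.1% of all genes, and PHO89 was higher against 16.1%. RNA came from whole cultures, so fewer cells with a transcript and less transcript per cell cannot be told apart.

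**Figure D1:**
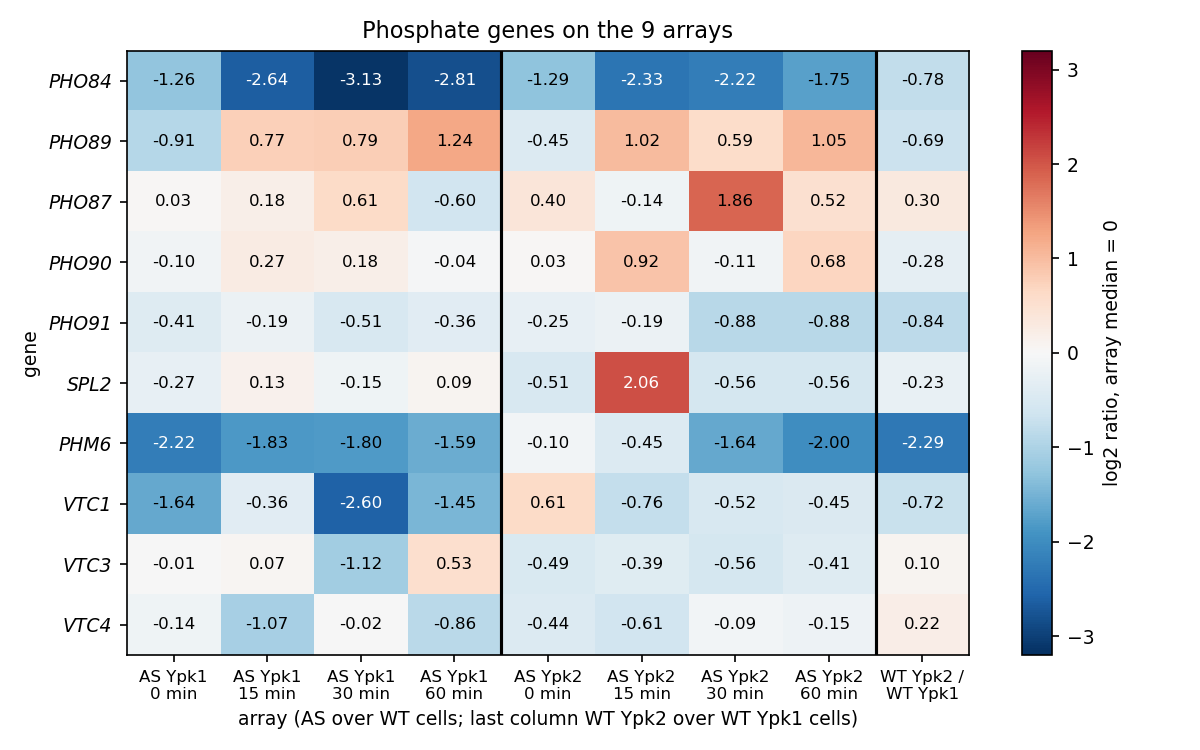
Log2 ratios, with each array's median at 0, of the 10 phosphate genes (rows) on the 9 arrays (columns); blue is lower and red higher in AS than in WT cells, or in WT Ypk2 than in WT Ypk1 cells in the last column. PHO84 was below 0 on all 9 arrays, and PHO89 was below 0 at 0 min and above 0 at every later time.

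PHO84 encodes the proton-coupled high-affinity phosphate transporter of the plasma membrane. In AS over WT Ypk1 cells it stood at −1.26, −2.64, −3.13 and −2.81 at 0, 15, 30 and 60 min. In AS over WT Ypk2 cells it stood at −1.29, −2.33, −2.22 and −1.75. All 6 later values lay below both values at 0 min, and the lowest came at 30 min with Ypk1 and at 15 min with Ypk2. The later mean was −2.86 ± 0.25 with Ypk1 (SD, n = 3 times), which is 7.26-fold lower in AS cells (limma adjusted p = 0.000833). With Ypk2 the later mean was −2.10 ± 0.31 (SD, n = 3 times), which is 4.28-fold lower (limma adjusted p = 0.00194). PHO84 was among the lowest transcripts of whole arrays: with Ypk1 it ranked 10 of 6267 from the bottom at 15 min, 3 of 6266 at 30 min and 11 of 6268 at 60 min. With Ypk2 it ranked 4 of 6267 at both 15 and 30 min and 55 of 6225 at 60 min.

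Part of the PHO84 difference was present at 0 min. PHO84 was then 2.39-fold lower in AS than in WT Ypk1 cells and 2.45-fold lower in AS than in WT Ypk2 cells. It ranked 67 of 6268 from the bottom on the Ypk1 array and 2 of 6268 on the Ypk2 array. The change from 0 min to the mean of the later times was −1.60 with Ypk1 (SE 0.42, limma adjusted p = 0.217) and −0.80 with Ypk2 (SE 0.42, limma adjusted p = 0.982), so neither change passed. Over 11 alternatives the Ypk1 change ran from −2.12 without centring to −0.44 with arrays scaled to one spread. The Ypk2 change ran from −0.98 to 0.73. It was above 0 only for arrays brought to one distribution, at 0.73. On the array of the WT strains PHO84 stood at −0.78, 1.71-fold lower in WT Ypk2 than in WT Ypk1 cells. Its Ypk2 call was lost without the 30 min arrays (−2.04, limma adjusted p = 0.0722) and without the 60 min arrays (−2.27, limma adjusted p = 0.0614), where the test called 0 genes lower.

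PHO89 encodes the sodium-coupled high-affinity phosphate transporter, which works best at alkaline pH. In AS over WT Ypk1 cells it stood at −0.91, 0.77, 0.79 and 1.24 at 0, 15, 30 and 60 min. In AS over WT Ypk2 cells it stood at −0.45, 1.02, 0.59 and 1.05, and on the array of the WT strains at −0.69. The 6 later values were all above 0 and the 3 others all below it, with no overlap. Only 44 of 6218 genes with a value on all 9 arrays, 0.708%, had that pattern of signs, which was described after the values were seen. PHO89 averaged 0.93 ± 0.27 over the later times with Ypk1 (SD, n = 3 times), 1.91-fold higher in AS cells (limma adjusted p = 0.0154). It was 0.89 ± 0.26 with Ypk2 (SD, n = 3 times), 1.85-fold higher (limma adjusted p = 0.0284).

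The later mean of PHO89 stood 1.84 above its 0 min value with Ypk1 (SE 0.41, limma adjusted p = 0.189) and 1.33 above it with Ypk2 (SE 0.41, limma adjusted p = 0.755), and neither passed. With arrays scaled to one spread the Ypk1 change was 2.03 and passed (limma adjusted p = 0.0377). The PHO89 calls were lost where arrays were not centred on their median, at 0.65 with Ypk1 (limma adjusted p = 0.0806) and 0.59 with Ypk2 (limma adjusted p = 0.134). They were also lost with Ypk1 without the 30 min arrays (limma adjusted p = 0.0946) or the 60 min arrays (limma adjusted p = 0.127) or with the Ypk1 arrays fitted alone (limma adjusted p = 0.0583), and with Ypk2 without the arrays of any 1 later time (limma adjusted p between 0.0720 and 0.205).

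**Figure D2:**
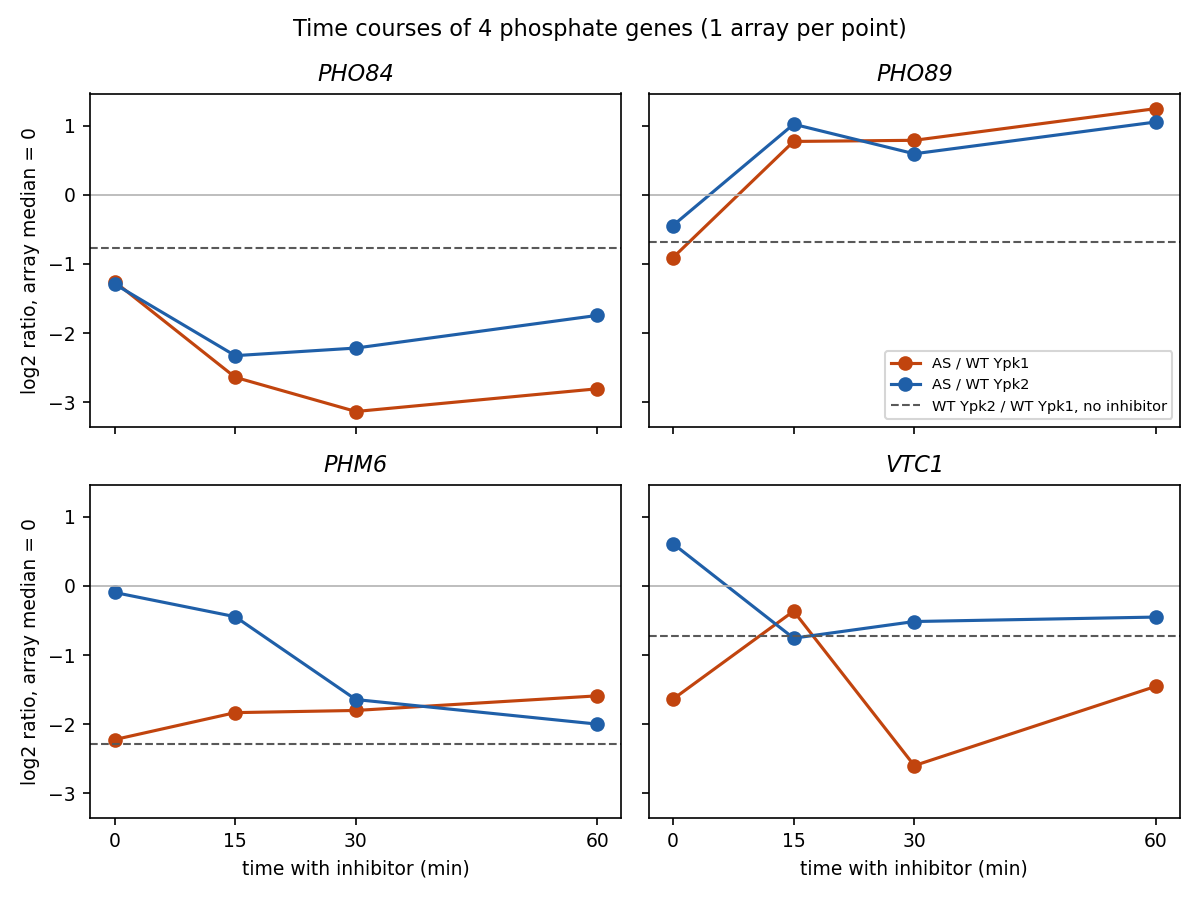
Log2 ratios, with each array's median at 0, against time with inhibitor (min) for PHO84, PHO89, PHM6 and VTC1; 1 array per point, AS over WT Ypk1 cells in orange and AS over WT Ypk2 cells in blue. The dashed line is the array of WT Ypk2 over WT Ypk1 cells. PHO84 lay below and PHO89 above its 0 min value at all later times with both kinases, and PHM6 began at −2.22 with Ypk1 but near 0 with Ypk2.

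The 2 high-affinity transporter genes thus stood on opposite sides of 0 at the later times. On the 9 arrays, PHO84 was the one of the 10 genes whose 6 later values all lay below the 3 other values, as for 5.47% of all genes with 9 values. PHO89 was the one whose 6 later values all lay above them, as for 5.97% of all genes. These counts were also taken after the values were seen.

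The low-affinity plasma membrane transporter genes gave no call. PHO87 stood at 0.03, 0.18, 0.61 and −0.60 in AS over WT Ypk1 cells and at 0.40, −0.14, 1.86 and 0.52 in AS over WT Ypk2 cells. Its value at 30 min with Ypk2, which ranked 6178 of 6267 from the bottom, stood apart from the other 2 later values of that series. The later mean was 0.06 ± 0.61 with Ypk1 (limma adjusted p = 0.917) and 0.75 ± 1.02 with Ypk2 (SD, n = 3 times each; limma adjusted p = 0.241). With arrays weighted by how well they fitted, the Ypk2 mean of PHO87 was 1.33 and passed (limma adjusted p = 0.00807). PHO90 stood at −0.10, 0.27, 0.18 and −0.04 with Ypk1 and at 0.03, 0.92, −0.11 and 0.68 with Ypk2. Its later mean was 0.14 ± 0.16 with Ypk1 (limma adjusted p = 0.702) and 0.50 ± 0.54 with Ypk2 (SD, n = 3 times each; limma adjusted p = 0.220). Both genes had later values on either side of 0 with each kinase.

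PHO91 encodes the transporter that releases phosphate from the vacuole. It stood at −0.41, −0.19, −0.51 and −0.36 in AS over WT Ypk1 cells, at −0.25, −0.19, −0.88 and −0.88 in AS over WT Ypk2 cells, and at −0.84 on the array of the WT strains. It was below 0 on all 9 arrays, as were PHO84 and PHM6 among the 10 and 5.23% of all genes. Its mean passed over both kinases (−0.50, 1.41-fold lower in AS cells, limma adjusted p = 0.0362) but with neither alone (limma adjusted p = 0.270 with Ypk1 and 0.0892 with Ypk2). The call over both kinases was lost without the 30 min arrays (limma adjusted p = 0.261) and without the 60 min arrays (limma adjusted p = 0.198). With Ypk2 alone PHO91 passed under 5 of 10 alternatives. These were arrays not centred (limma adjusted p = 0.0335), scaled (limma adjusted p = 0.0480), quantile normalized (limma adjusted p = 0.0499) or weighted (limma adjusted p = 0.00250). The last was the fit without the 15 min arrays (limma adjusted p = 0.0408).

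SPL2 encodes a small protein that keeps the low-affinity transporters out of use when phosphate is scarce. It stood at −0.27, 0.13, −0.15 and 0.09 in AS over WT Ypk1 cells and at −0.51, 2.06, −0.56 and −0.56 in AS over WT Ypk2 cells. The 15 min value with Ypk2 ranked 6176 of 6267 from the bottom, and no other value of SPL2 was above 0.13. The later mean was 0.03 ± 0.15 with Ypk1 (limma adjusted p = 0.973) and 0.31 ± 1.51 with Ypk2 (SD, n = 3 times each; limma adjusted p = 0.709).

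PHM6, whose transcript accumulates when phosphate is low and whose protein has no known function, stood at −2.22, −1.83, −1.80 and −1.59 in AS over WT Ypk1 cells. In AS over WT Ypk2 cells it stood at −0.10, −0.45, −1.64 and −2.00. The Ypk1 series was thus low from the start, while in the Ypk2 series every later value lay below that at 0 min. PHM6 averaged −1.74 ± 0.13 over the later times with Ypk1, 3.34-fold lower in AS cells (limma adjusted p = 0.00518). It was −1.36 ± 0.81 with Ypk2, 2.57-fold lower (SD, n = 3 times each; limma adjusted p = 0.0214). The changes from 0 min were 0.48 with Ypk1 (limma adjusted p = 0.777) and −1.27 with Ypk2 (limma adjusted p = 0.948), and neither passed. Over 11 alternatives the Ypk1 change of PHM6 ran from −0.58 to 1.83, with a value below 0 without centring and against the mean of both 0 min arrays, and the Ypk2 change from −1.73 to −0.20.

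PHM6 was also the gene of the 10 that most separated the WT strains. It stood at −2.29 in WT Ypk2 over WT Ypk1 cells, rank 9 of 6266 from the bottom. It ranked 6 of 6268 in AS over WT Ypk1 cells at 0 min and 2549 of 6268 in AS over WT Ypk2 cells at 0 min. WT Ypk1 cells were thus the culture with the higher PHM6 level both on the WT array and at 0 min of the Ypk1 series. The Ypk1 call was lost without the 30 min arrays (limma adjusted p = 0.0657). The Ypk2 call was lost with the Ypk2 arrays fitted alone (limma adjusted p = 0.0516), without the 30 min arrays (limma adjusted p = 0.218) and without the 60 min arrays (limma adjusted p = 0.203).

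VTC1 encodes the small membrane subunit shared by the VTC complexes. It stood at −1.64, −0.36, −2.60 and −1.45 in AS over WT Ypk1 cells, with the 15 min value far above the others. In AS over WT Ypk2 cells it stood at 0.61, −0.76, −0.52 and −0.45, with all 3 later values below that at 0 min. The change of VTC1 from 0 min was 0.17 with Ypk1 and −1.18 with Ypk2. Over 11 alternatives these ran from −0.96 to 1.13 and from −1.48 to −0.06. The later mean was −1.47 ± 1.12 with Ypk1, 2.77-fold lower in AS cells (limma adjusted p = 0.0217), and −0.57 ± 0.16 with Ypk2, which did not pass (SD, n = 3 times each; limma adjusted p = 0.346). The Ypk1 value rested largely on 30 min: without the arrays of that time it was −0.91 and did not pass (limma adjusted p = 0.162). It also failed without the 60 min arrays (limma adjusted p = 0.127) and with the Ypk1 arrays fitted alone (limma adjusted p = 0.0644). Over both kinases VTC1 was 2.03-fold lower (limma adjusted p = 0.0168), a call lost without the 30 min arrays (limma adjusted p = 0.0957) or the 60 min arrays (limma adjusted p = 0.0999).

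The other polyphosphate synthesis subunits gave no call. VTC3, an accessory subunit of the complex, stood at −0.01, 0.07, −1.12 and 0.53 in AS over WT Ypk1 cells and at −0.49, −0.39, −0.56 and −0.41 in AS over WT Ypk2 cells. Its 30 min value with Ypk1 was low on the same array as the lowest VTC1 value. VTC4, the catalytic subunit, stood at −0.14, −1.07, −0.02 and −0.86 with Ypk1 and at −0.44, −0.61, −0.09 and −0.15 with Ypk2. Its low arrays with Ypk1, at 15 and 60 min, were not those of VTC3. The later means of VTC3 were −0.17 ± 0.85 with Ypk1 (limma adjusted p = 0.701) and −0.45 ± 0.09 with Ypk2 (SD, n = 3 times each; limma adjusted p = 0.367). Those of VTC4 were −0.65 ± 0.55 with Ypk1 (limma adjusted p = 0.0926) and −0.28 ± 0.28 with Ypk2 (SD, n = 3 times each; limma adjusted p = 0.509). Without centring of the arrays, VTC4 was −0.93 with Ypk1 and passed (limma adjusted p = 0.0368).

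**Figure D3:**
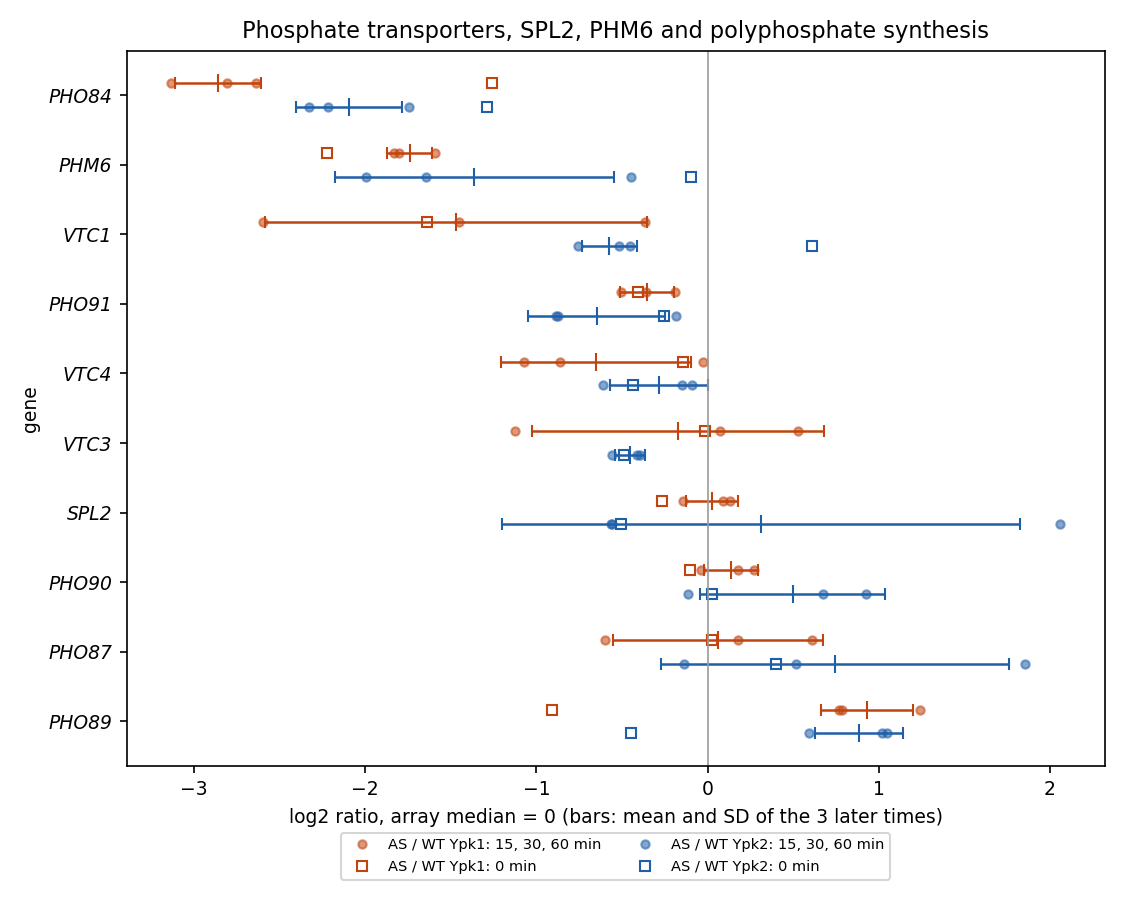
Log2 ratios, with each array's median at 0, of the 10 genes, ordered by their mean over both kinases; dots are the 15, 30 and 60 min arrays, bars their mean and SD, open squares the 0 min array, orange for AS over WT Ypk1 cells and blue for AS over WT Ypk2 cells. The later dots of PHO84 lie left of its squares and those of PHO89 right of them, and VTC1, SPL2 and PHO87 have the widest bars.

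Before inhibitor, 3 of the 10 genes were at least 2-fold lower in AS than in WT Ypk1 cells, namely PHM6, VTC1 and PHO84, against 1.6% of all genes on that array. In AS against WT Ypk2 cells at 0 min, PHO84 alone was at least 2-fold lower, against 0.0957% of all genes, which is 6 genes in all. On the array of the WT strains, PHM6 alone was at least 2-fold lower in WT Ypk2 than in WT Ypk1 cells, against 2.35% of all genes. None of the 10 was at least 2-fold higher on any of these 3 arrays, and their medians were −0.34, −0.35 and −0.48. These are single arrays with no test.

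No change from 0 min passed for any of the 10 genes with limma at the adjusted threshold. Of all genes, 0.0482% were lower with Ypk1 by that test and 0 with Ypk2. At an unadjusted p under 0.05, PHO84 was lower and PHO89 higher with Ypk1, and PHO89 was higher with Ypk2, while 391 of all genes were lower and 312 higher with Ypk1, and 184 lower and 137 higher with Ypk2. The test of Ypk1 against Ypk2 passed for none of the 10 and for 0 of all genes, either on the later ratios or on the changes. For PHO84 the later ratio with Ypk1 minus that with Ypk2 was −0.76 (95% interval −1.44 to −0.09, limma adjusted p = 0.492), the one member with an unadjusted p under 0.05, as for 291 of all genes in that direction; over 10 alternatives it ran from −0.99 to −0.10. For PHO89 the difference was 0.05 (95% interval −0.62 to 0.71). The changes from 0 min of PHM6 differed by 1.75 (95% interval −0.12 to 3.61, limma adjusted p = 0.998), with a range of 1.29 to 3.06 over 9 alternatives, and the later ratios of VTC1 by −0.90 (95% interval −2.05 to 0.26, limma adjusted p = 0.592). Inhibitor and dose differed with the kinase, so their parts in these differences cannot be told apart.

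**Figure D4:**
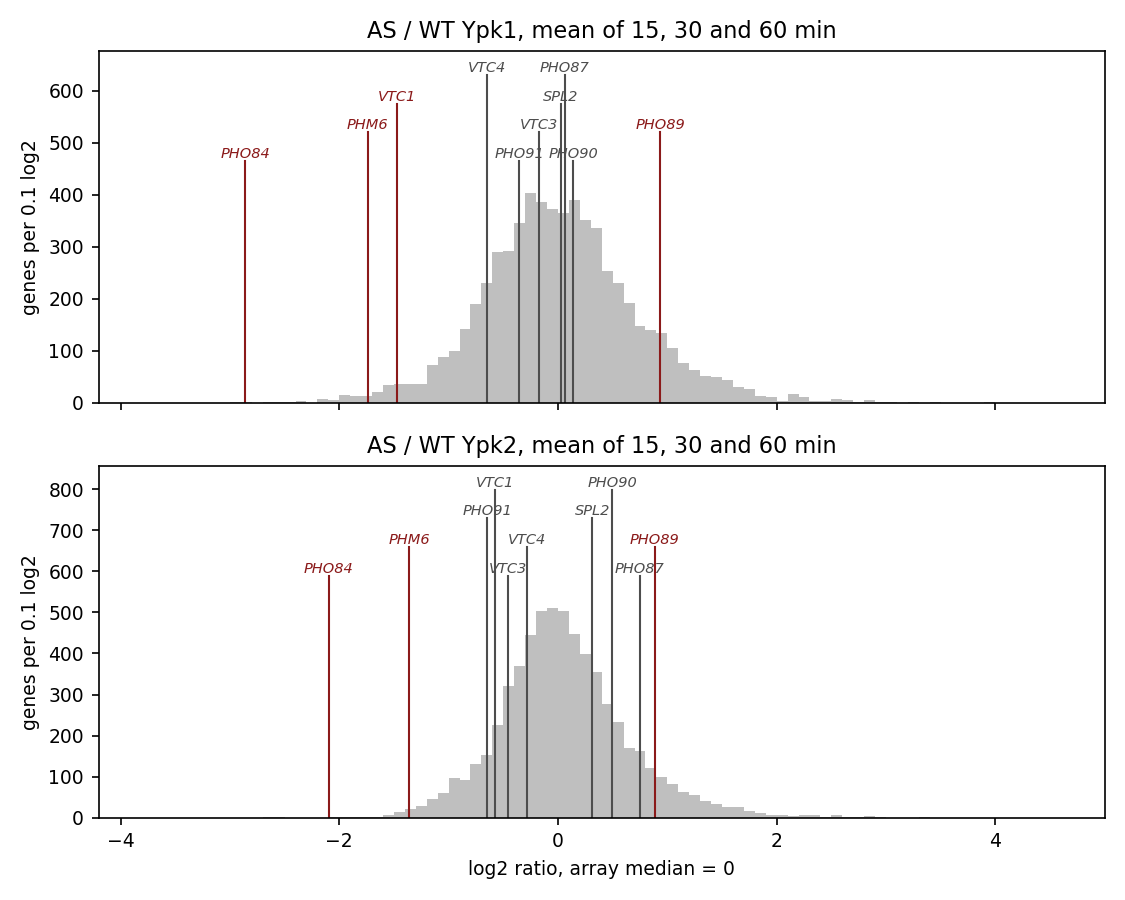
Number of genes per 0.1 log2 against the mean log2 ratio of 15, 30 and 60 min, with each array's median at 0, for AS over WT Ypk1 cells (top) and AS over WT Ypk2 cells (bottom); grey bars are the 6220 genes tested and lines the 10 phosphate genes, red where the test passed. PHO84 lies in the lower tail with both kinases, at −2.86 and −2.10, and 6 of the 10 genes with Ypk1 and 7 with Ypk2 did not pass.

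The rest of the phosphate system was taken from 4 lists of 29 genes, 28 of them tested. These lists too were chosen with earlier results of these data known. Most genes named from them are those with the largest absolute later means. PHO85, the cyclin-dependent kinase gene, lacked a value at 60 min with Ypk2. Of the 28, 6 were lower and 1 higher with Ypk1, which is 21.4% and 3.57% of them, against 10.5% and 10.9% of all genes. With Ypk2, 3 were lower and 1 higher, which is 10.7% and 3.57%, against 4.73% and 6.98% of all genes. Their medians were −0.37 with Ypk1 and −0.17 with Ypk2. None of the 8 tested PHO signalling genes passed in either direction with either kinase in the fit of all 8 arrays. PHO92 with Ypk2 passed as higher under 4 of 10 alternatives (limma adjusted p between 0.00416 and 0.34 over all of them), KCS1 with Ypk1 as lower without centring (limma adjusted p = 0.0169), and PHO4 with Ypk2 as lower without the 15 min arrays (limma adjusted p = 0.0472). PHO4, the transcription factor gene, stood at 0.06, 2.50, 0.02 and −0.16 in AS over WT Ypk1 cells and at −0.26, 0.47, −0.99 and −0.73 in AS over WT Ypk2 cells. PHO81, the gene of the kinase inhibitor and itself a Pho4 target, stood at 0.09, 0.02, 0.27 and 0.19 with Ypk1 and at −0.01, 0.26, −0.41 and −0.41 with Ypk2. Apart from the 15 min value of PHO4 with Ypk1, these values stayed within 1 log2 unit of the array median. CBF1, PHO2 and KCS1, which encode a pair of transcription factors and an inositol pyrophosphate kinase, had later means of 1.27, 0.38 and −0.72 with Ypk1 and of −0.16, 0.41 and −0.30 with Ypk2. The CBF1 mean with Ypk1 rested on its 60 min value of 3.70. PHO92, which encodes an RNA-binding protein, had later means of −0.09 with Ypk1 and 0.73 with Ypk2. With Ypk2 PHO92 was already higher at 0 min, at 1.39, and all 3 later values lay below that. This change of −0.66 from 0 min did not pass.

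Of the 6 phosphatase genes, 4 were lower with Ypk1, against 10.5% of all genes, and 2 with Ypk2, against 4.73%. PHO5, the repressible acid phosphatase gene that is the classic Pho4 target, stood at 0.27, −1.27, −2.47 and −3.35 in AS over WT Ypk1 cells and at −0.20, −1.92, −2.02 and −1.39 in AS over WT Ypk2 cells. Its later mean was −2.36 ± 1.05 with Ypk1 (limma adjusted p = 0.00362) and −1.78 ± 0.34 with Ypk2 (SD, n = 3 times each; limma adjusted p = 0.0165). The PHO5 calls were lost with Ypk1 without the 30 min arrays (limma adjusted p = 0.0518), and with Ypk2 without the 30 or 60 min arrays (limma adjusted p = 0.185 and 0.0758). Unlike PHO84, it was within 0.3 of the array median at 0 min with both kinases. PHO3, an acid phosphatase gene known for its control by thiamine, was lower with both (−1.68 with Ypk1, limma adjusted p = 0.00180, and −2.53 with Ypk2, limma adjusted p = 0.00172); its Ypk2 call was lost without the 30 or 60 min arrays (limma adjusted p = 0.0722 and 0.0614). PHO11 was lower with Ypk1 (−2.07, limma adjusted p = 0.00337) and at −0.22 with Ypk2 (limma adjusted p = 0.681), whereas its near-identical copy PHO12 stood at 1.01 with Ypk1 (limma adjusted p = 0.0553) and 0.91 with Ypk2 (limma adjusted p = 0.106). PHO12 passed as higher over both kinases (limma adjusted p = 0.0137), and with Ypk2 under 3 of 10 alternatives: scaled arrays (limma adjusted p = 0.0336), array weights (limma adjusted p = 0.00466) and the Ypk2 arrays fitted alone (limma adjusted p = 0.0487). PHO12 was already higher at 0 min, at 1.40 with Ypk1 and 1.22 with Ypk2. Its changes from 0 min were −0.39 with Ypk1 and −0.31 with Ypk2, and neither passed. PHO8, the vacuolar alkaline phosphatase gene, completed the 4 with Ypk1 (−0.74, limma adjusted p = 0.0483) and is named after its value was seen; that call was lost under 7 of 10 alternatives, the Ypk1 arrays fitted alone (limma adjusted p = 0.116) among them. Binding of near-identical transcripts to each other's probes, as among PHO3, PHO5, PHO11 and PHO12, was not tested.

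Among 6 other polyphosphate genes, PPX1, which encodes the exopolyphosphatase that breaks polyphosphate down, was higher with both kinases. It stood at 0.03, 1.27, 1.00 and 1.44 in AS over WT Ypk1 cells and at −0.09, 0.95, 1.30 and 1.53 in AS over WT Ypk2 cells. All 6 later values were above both 0 min values. PPX1 averaged 1.23 ± 0.22 over the later times with Ypk1, 2.35-fold higher in AS cells (limma adjusted p = 0.00518), and 1.26 ± 0.29 with Ypk2, 2.39-fold higher (SD, n = 3 times each; limma adjusted p = 0.00865). Both calls were lost without the 30 or 60 min arrays (limma adjusted p = 0.0594 and 0.0616 with Ypk1, and 0.142 and 0.112 with Ypk2). VTC2, an accessory subunit related to VTC3, was lower with Ypk1 (−0.85 ± 0.19, limma adjusted p = 0.0414) and stood at −0.45 with Ypk2 (limma adjusted p = 0.290). Its Ypk1 call held under only 3 of 10 alternatives. It was lost without the arrays of any 1 later time (limma adjusted p between 0.0611 and 0.188). Scaling, quantile normalization or array weights also lost it (limma adjusted p between 0.0811 and 0.0958), as did fitting the Ypk1 arrays alone (limma adjusted p = 0.0669). VTC5, a further accessory subunit, stood at −0.71 with Ypk1 and −0.42 with Ypk2 and passed over both kinases (−0.56, limma adjusted p = 0.0301). With 1 kinase it passed under 2 of 10 alternatives for Ypk1 and 1 of 10 for Ypk2. PPN1, a vacuolar polyphosphatase gene, had later means of −0.35 and −0.21 and did not pass.

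Among 8 other genes of phosphate transport, 1 was lower with each kinase, 12.5% of the list against 10.5% of all genes with Ypk1 and 4.73% with Ypk2, and none was higher. SYG1, a membrane protein gene of the family that holds the phosphate exporter of other eukaryotes, stood at −0.02, −2.05, −1.67 and −2.00 in AS over WT Ypk1 cells and at −0.24, 0.06, −0.82 and −0.93 in AS over WT Ypk2 cells. Its later mean was −1.91 ± 0.21 with Ypk1, 3.75-fold lower in AS cells (SD, n = 3 times; limma adjusted p = 0.00207), and −0.56 with Ypk2 (limma adjusted p = 0.171). With Ypk2 SYG1 passed as lower under array weights (−0.73, limma adjusted p = 0.00632) and without the 15 min arrays (−0.87, limma adjusted p = 0.0465). The difference between the kinases was −1.35 and did not pass (limma adjusted p = 0.411). PHO86, which encodes the endoplasmic reticulum protein needed for Pho84 to reach the plasma membrane, was lower with Ypk2 (−1.13 ± 0.37, SD, n = 3 times; limma adjusted p = 0.0450) and stood at −0.49 with Ypk1 (limma adjusted p = 0.276). The PHO86 call was lost without the arrays of any 1 later time (limma adjusted p between 0.0690 and 0.271). MIR1 and PIC2, the mitochondrial phosphate carrier genes, had later means of −0.84 and 0.22 with Ypk1 and of −0.22 and 0.41 with Ypk2, and neither passed in the main fit. MIR1 passed as lower with Ypk1 without centring (limma adjusted p = 0.0280), and PIC2 as higher with Ypk2 under array weights (limma adjusted p = 0.0456).

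**Figure D5:**
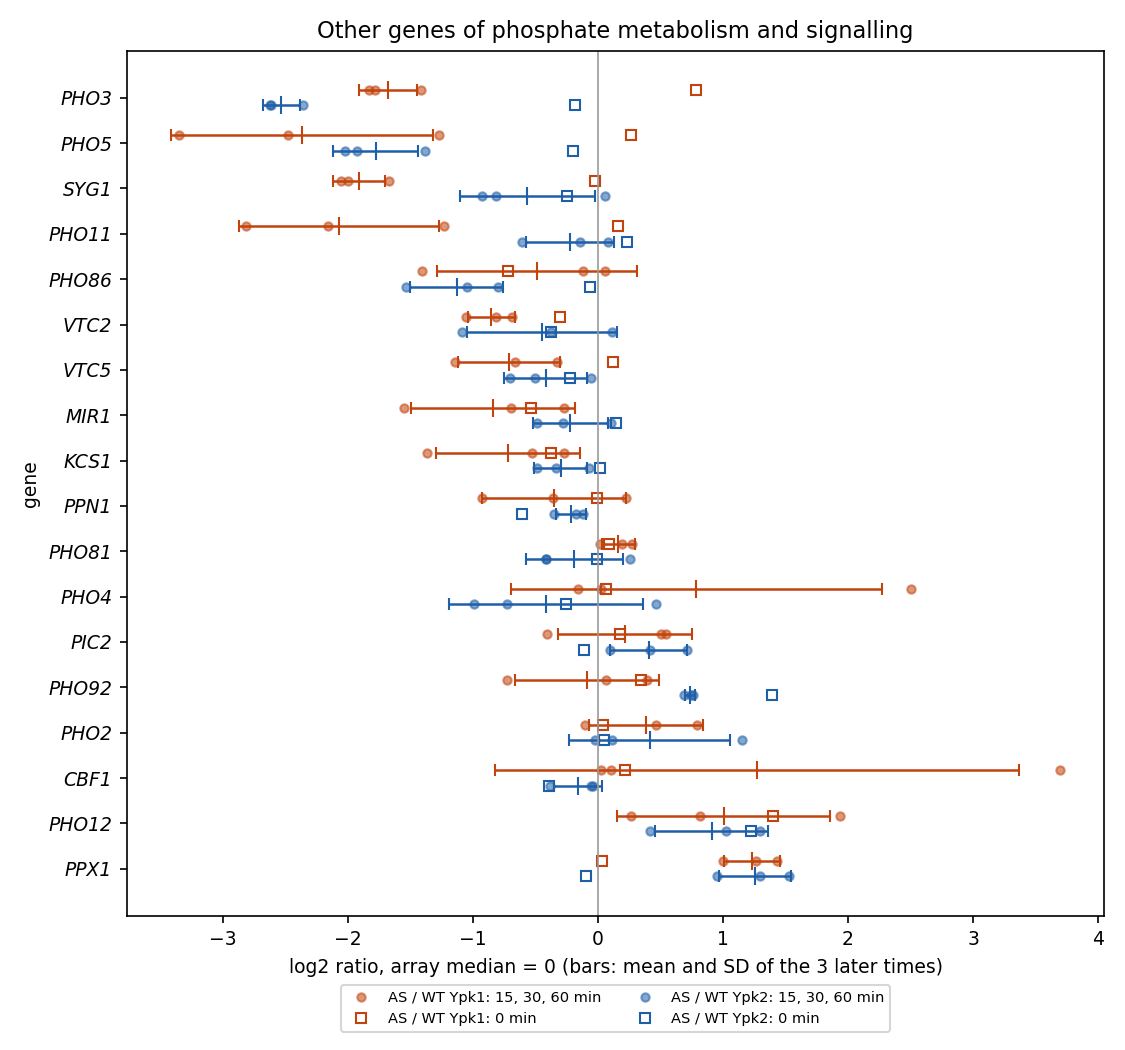
Log2 ratios, with each array's median at 0, of the other phosphate genes named in the text apart from PHO8, ordered by their mean over the 6 later arrays; dots are the 15, 30 and 60 min arrays, bars their mean and SD, open squares the 0 min array, orange for AS over WT Ypk1 cells and blue for AS over WT Ypk2 cells. Averaged over the 6 later arrays, PHO3 and PHO5 were lowest and PPX1 highest, with 0 min values near 0 for PPX1.

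The genes whose values over the 9 arrays lay nearest to those of PHO84 were YHR125W, CDC8, MEP2, NOP4 and RPA43, with mean absolute differences of 0.55, 0.69, 0.69, 0.71 and 0.71 on the log2 scale. MEP2 encodes an ammonium transporter, CDC8 a thymidylate kinase, and NOP4 and RPA43 proteins of ribosome and ribosomal RNA production. None of the 10 phosphate genes was among these 5. PHM6 came nearest of them at rank 84 of 6218 (1.08), followed by VTC1 at rank 183 (1.23) and PHO91 at rank 623 (1.54), while PHO89 ranked 4983 (2.40). The genes next to those that passed over both kinases showed no one pattern. YML122C, next to PHO84, averaged −0.0048 over the 6 later arrays, and TDA2 and ALD5, on either side of VTC1, averaged −0.04 and 0.002. RRP45, next to PHM6, was lower like it (−0.89, limma adjusted p = 0.00269), and PCA1, next to PHO89, was higher like it (0.77, limma adjusted p = 0.0283). Of the genes around PHO91, URK1 was lower (−0.67, limma adjusted p = 0.00547) and YNR014W, transcribed away from PHO91, was higher (1.26, limma adjusted p = 0.000404). Promoter sequences were not analysed here.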

How the data were processed

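RNA with a poly(A) tail from AS and WT cells was compared on 9 arrays with 2 dyes, AS cells (or WT Ypk2 cells) in Cy5 and WT cells in Cy3 per the labels. The authors deposited 1 log2 ratio per feature and array. Their normalization, scanner and array design are not given in the sources used here, no channel intensities were used, and the number of arrays limits the precision. Direction was read from YPK1 and YPK2 on the array of the WT strains and assumed for the others. Array medians lay between −0.52 and 0.23, so each array was centred on its median.

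One limma fit (3.58.1, R 4.3.3) of 8 arrays had 4 means, each kinase at 0 min and later, with 4 residual degrees of freedom; the lone 0 min arrays are assumed to vary like the others. Two-sided p-values were adjusted by Benjamini-Hochberg over 6220 features; 48 with a missing value were left out. The procedure was tested on simulated data. Of the features, 5777 were named through the RefSeq R64 gene table, which also gave the neighbours, and 491 kept the deposited name.

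The members and lists were chosen with earlier results of these data known. Named were all members, PHO4, PHO81, PHO5, up to 4 genes a list with the largest absolute mean over the 6 later arrays, and the 5 genes nearest to PHO84. Counts of sign and order over the 9 arrays, and the neighbours, were added after values were seen. Promoter motifs were not analysed here. Alternatives covered centring, scaling, quantile normalization, array weights, a robust fit, a looser filter on missing values, each kinase alone, the later baseline, fold thresholds and leaving out each time.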

Additional observations from a re-analysis of the deposited data

How the results depend on the processing

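Over the 7 contrasts and up to 11 alternatives, the members' results stayed on their side of the threshold in 670 cases, calls were lost in 21 and gained in 9, and no called value changed sign. The 670 include cases with no call to lose, such as all 10 members in the changes from 0 min and the differences between kinases. The calls with Ypk1 held under 10 of 10 alternatives for PHO84, 9 for PHM6, 7 for VTC1 and 6 for PHO89. Those with Ypk2 held under 8 of 10 for PHO84, 7 for PHM6 and 6 for PHO89. Over both kinases PHO84, PHM6 and PHO89 held under 9 of 9, and VTC1 and PHO91 under 7. Without 1 time the count of members lower ranged from 1 to 3 with Ypk1 (3 with all times), from 0 to 3 with Ypk2 (2 with all times) and from 2 to 4 over both kinases (4 with all times). With Ypk1 it was 1 without 30 min, with Ypk2 it was 0 without 30 min and 0 without 60 min, and over both it was 2 without either. With the Ypk2 arrays fitted alone 1 member was lower. With scaled arrays 1 member, PHO89, changed from 0 min with Ypk1, against 0 otherwise, and at 1.5-fold 5 members were lower on the array of the WT strains, against 1 at 2-fold. The cause was not tested. Over all genes, 654 were lower with Ypk1, against 1201 without centring, 300 with its arrays alone, 120 without 30 min and 164 without 60 min. With Ypk2 294 were lower, against 614 without centring, 518 after scaling, 527 after quantile normalization, 1065 under array weights and 0 without 30 or 60 min. Over both kinases 937 were lower, against 1903 without centring, 288 without 30 min and 374 without 60 min. Of changes from 0 min, 3 were lower with Ypk1, against 6 without centring, 38 with scaled arrays, 16 with quantile normalization and 0 without 30 min, without 60 min or against a mean baseline; with Ypk2 0 were lower, against 12 after scaling, 11 after quantile normalization and 1 under array weights. The difference in change between kinases had 0 lower, against 3 without centring, 8 after scaling, 5 after quantile normalization, 3 under array weights and 2 with a robust fit. Without centring the median gene stood at −0.29 with Ypk1 and −0.28 with Ypk2, and 22.5% of calls with Ypk1, 26.9% with Ypk2 and 20.7% over both were higher, against 51.0%, 59.6% and 51.6% with centring. The other phosphate genes lost 26 calls and gained 16: VTC2 with Ypk1 and PHO86 with Ypk2 were lost without any 1 time. No paired analysis of replicates was possible because each condition has 1 array. The kinases were paired by time instead, and with time as a block 0 members differed between kinases (PHO84, limma adjusted p = 0.531).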
